A study of Homo sapiens with 9 samples.

Results

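The nuclear-encoded genes of the mitochondrial respiratory chain were followed in differentiating NT2 cells on 9 arrays. They were the genes whose name on the array begins as those of the subunits of complexes I to V do (NDUFA, NDUFB, NDUFC, NDUFS or NDUFV with a number, SDHA to SDHD, UQCR, COX4 to COX8 with a letter, and ATP5 with a letter). This rule, which uses names and no measured value, found 86 of the 34623 genes and other named targets of the array, measured by 108 probes. NT2 cells, a line from a human embryonal carcinoma, turn towards neurons in the presence of retinoic acid, which all cultures received. The groups were control cultures (n = 3), cultures with 1 μM paraoxon (n = 3) and cultures with 5 μM mipafox (n = 3), for 96 h. Paraoxon and mipafox are organophosphorus compounds that inhibit esterases, and mipafox also acts on neuropathy target esterase. NT2 is a single tumour line, and all 9 samples are cultures of it. The arrays carry the letters A, B and C within a group, and values of a group are given in that order. The paper describes them as technical replicates and the sample labels as biological ones, so p-values may measure only technical spread. Control A, B and C and mipafox A lay on slide 1, and paraoxon A, B and C and mipafox B and C lay on slide 2. No slide held both a control and a paraoxon array.

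The respiratory chain passes electrons from NADH (complex I) and from succinate (complex II) through complexes III and IV to oxygen and pumps protons across the inner mitochondrial membrane, and complex V, the ATP synthase, uses the proton gradient to make ATP. Most subunits are encoded in the nucleus, a few in mitochondrial DNA, and the nuclear genes lie scattered over the chromosomes. Pluripotent cells rely much on glycolysis, and neurons depend on oxidative phosphorylation. The member probes lay on 22 chromosomes (build hg19), and 26 of the 107 with coordinates spanned more than the 60 bases of a probe, so that they cross at least 1 exon junction.

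Levels are given as the log2 of the processed signal minus the 75th percentile of the array, so that 0 is the 75th percentile of that array. The percentile was between 802 (mipafox A) and 1590 (paraoxon A) signal units, and between 69.6% and 76.6% of the spots of an array were well above background. The pluripotency markers POU5F1 and SOX2 and the retinoic acid-induced CYP26A1 were well above background on all 9 arrays, and of the 6 probes for astrocyte markers 1, for S100B, was, while both GFAP probes were above it on 0. Of the 13 probes for retinoic acid response genes 12, and of the 12 for neural genes 9, were well above background on every array. In bulk RNA, fewer cells of a type and less RNA per cell cannot be told apart.

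No respiratory chain probe was called with paraoxon or with mipafox. Of the 108 probes, all but 3 (84 genes) were well above background on all 9 arrays and were tested with limma across 29134 probes, where a call needed a Benjamini-Hochberg adjusted p under 0.05 and a log2 change beyond 1. In this fit of all 9 arrays the share of all tested probes called was 0% for paraoxon and 0% for mipafox. Some other fits did call probes: with only the control and paraoxon arrays 278 of 29055 were called, with no member among them. In the fit of all 9 arrays, at an unadjusted p under 0.05, 2 of the tested member probes were higher with paraoxon (7.31% of all tested probes) and 1 was lower (6.02% of all). With mipafox 0 were higher (2.96% of all) and 1 was lower (4% of all). Thus 2.86% of the member probes passed that limit with paraoxon against 13.3% of all tested probes, and 0.952% with mipafox against 6.96%. The shares were also low among bright probes outside the respiratory chain: of the 2058 tested probes with a mean level over 3 that were no members, 4.18% passed with paraoxon and 1.75% with mipafox. Of the member probes, 74 had such a level.

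The median log2 change over the tested member probes was -0.054 with paraoxon (37 positive, 68 negative) and -0.019 with mipafox (44 positive, 61 negative), beside 0.012 and 0.00099 over all tested probes. The median per array, against the mean of the controls, had an SD of 0.047 over the controls, 0.172 over the paraoxon arrays and 0.307 over the mipafox arrays. Each median change was smaller than the SD over the treated arrays of its comparison. The 2 comparisons share the 3 control arrays. With slide as a block the medians turned to 0.34 (92 positive) and 0.26 (93 positive), where all tested probes had 0.102 and 0.061. In that fit mipafox A is the only array that links the control arrays to slide 2. Without paraoxon B the median for paraoxon was 0.026, and without mipafox C that for mipafox was 0.137.

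Intervals of the difference were narrow in the fit without slide and wide with it. Without slide, for all but 5 of the tested member probes with paraoxon and all but 3 with mipafox the 95% interval of the log2 change lay inside -1 to 1, that is, within a doubling or halving. This was so for 77.5% and 82.2% of all tested probes. The probes whose interval reached further were those of SDHC (A_24_P233850), ATP5S (A_33_P3279798) and COX6B2 (A_33_P3378284) in both comparisons, and SDHA (A_23_P250035) and COX6B2 (A_23_P78571) with paraoxon. An interval inside -0.5 to 0.5 was reached for 35 and 40 probes. With slide as a block the interval lay inside -1 to 1 for 37 probes with paraoxon and 77 with mipafox, so the narrow intervals do not bound the change where slide and treatment cannot be told apart.

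**Figure D1:**
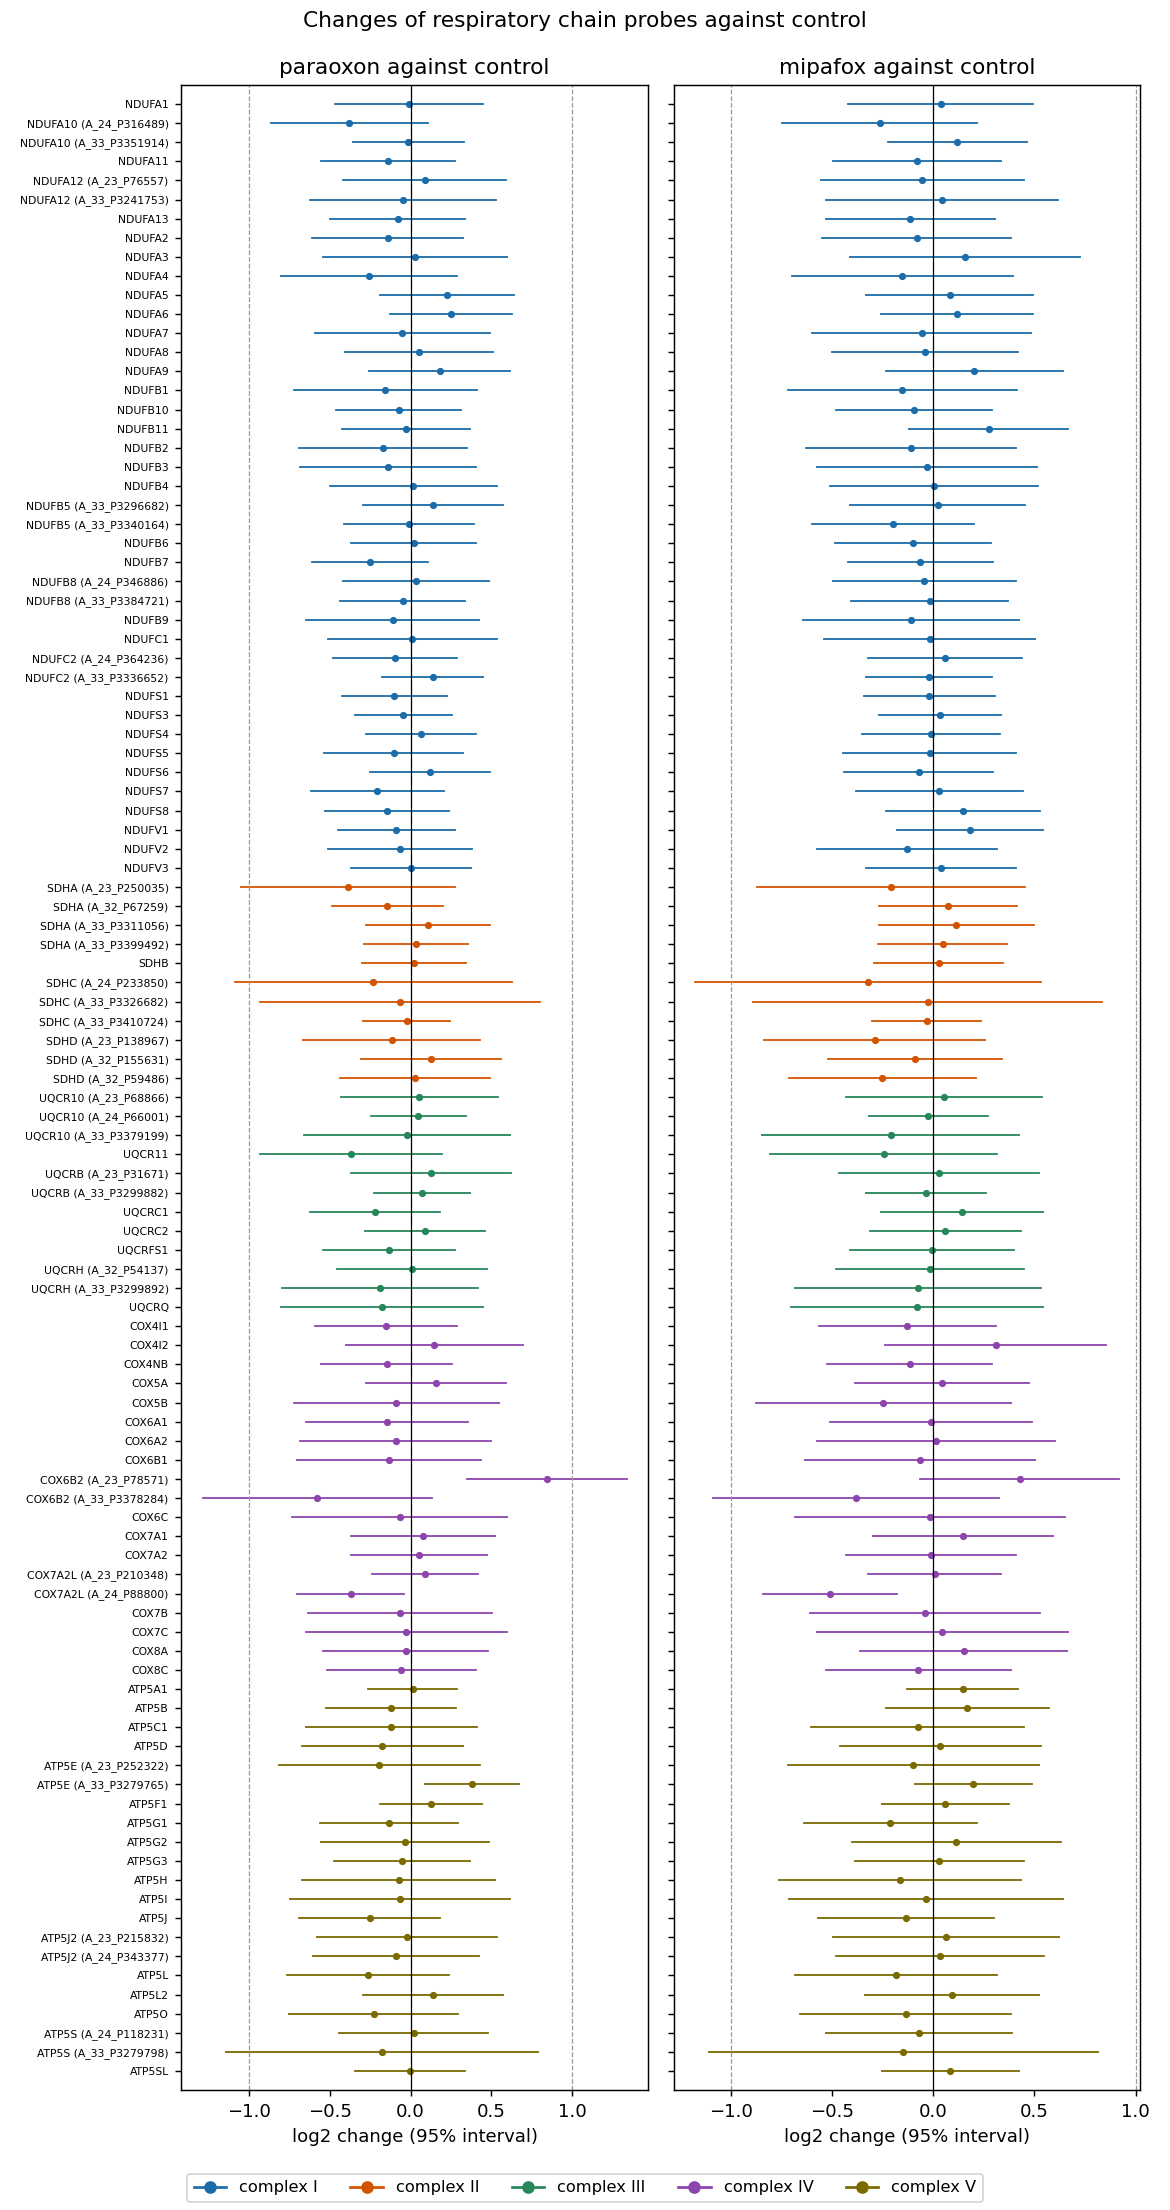
Log2 change of the tested member probes, all but 1, against control (points) with its 95% limma interval (lines), for paraoxon at the left and mipafox at the right, coloured by complex; dashed lines mark -1 and 1. Nearly all intervals cross 0, and those of COX7A2L (A_24_P88800, -0.37 and -0.51), COX6B2 (A_23_P78571, 0.84 with paraoxon) and ATP5E (A_33_P3279765, 0.38 with paraoxon) do not where those values are given.

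Complex I, which oxidises NADH, had 43 probes for 38 genes, of which 42 probes were tested. None passed an unadjusted p of 0.05 in either comparison without slide in the fit. With slide as a block 4 did with paraoxon, all higher, where 8.02% of all tested probes passed. They were NDUFA8 (0.75), NDUFB5 (A_33_P3296682, 0.74), NDUFB8 (A_24_P346886, 0.64) and NDUFS6 (0.58), each with a limma adjusted p of 0.613. In that fit the second NDUFB5 probe (A_33_P3340164) had 0.19 and the second NDUFB8 probe (A_33_P3384721) 0.39, neither past the unadjusted limit. Without slide the changes of the 4 higher probes were 0.053, 0.14, 0.033 and 0.12. The median log2 change was -0.046 with paraoxon and -0.020 with mipafox. The 7 conserved core subunits, which carry the FMN and the iron-sulphur clusters or shape the quinone site, had changes between -0.21 and -0.044 with paraoxon and between -0.13 and 0.18 with mipafox. NDUFV1, the subunit that binds FMN and NADH, was at 4.63 ± 0.05 (SD, n = 3) in controls, 4.54 ± 0.21 with paraoxon and 4.81 ± 0.21 with mipafox. NDUFS1, the large iron-sulphur subunit of the input arm, was at 3.5 ± 0.02, 3.40 ± 0.18 and 3.48 ± 0.14. NDUFS3, at the arm that leads to quinone, was at 3.35 ± 0.11 in controls, 3.31 ± 0.03 with paraoxon and 3.39 ± 0.15 with mipafox. In these genes the groups overlapped.

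The iron-sulphur subunit NDUFS7 was at 3.40 ± 0.24 in controls, 3.19 ± 0.26 with paraoxon and 3.43 ± 0.13 with mipafox. NDUFS8, another iron-sulphur subunit, was at 4.43 ± 0.16, 4.28 ± 0.27 and 4.58 ± 0.12. Among the accessory subunits, the smallest unadjusted p with paraoxon was that of NDUFA10 (A_24_P316489), with -0.22, -0.68 and -0.67 on the controls, -0.91, -0.69 and -1.11 on the paraoxon arrays, and -0.42, -0.86 and -1.09 on the mipafox arrays. Its log2 change with paraoxon was -0.38 (SE 0.214, limma adjusted p = 0.504), with all 3 paraoxon arrays below the controls. The second NDUFA10 probe (A_33_P3351914) had a change of -0.013. With mipafox the smallest p was that of NDUFB11, an accessory subunit of the membrane arm, with 5.28, 5.18 and 5.11 on the controls and 5.49, 5.68 and 5.23 on the mipafox arrays. The change was 0.27 (SE 0.175, limma adjusted p = 0.835), and mipafox C lay among the controls.

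NDUFA4, now counted with complex IV, was at 6.93 ± 0.14 in controls, 6.67 ± 0.39 with paraoxon and 6.77 ± 0.38 with mipafox. NDUFA4L2, its paralogue known to be induced by hypoxia, was not well above background on any array and has no level here. Both genes were grouped by name with complex I in the counts given here, and NDUFA4 also in the medians.

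Complex II, succinate dehydrogenase, is the only complex with all its subunits encoded in the nucleus. Its 4 genes had 11 probes, all tested, with median log2 changes of -0.025 and -0.033 and none past an unadjusted p of 0.05. SDHB, the iron-sulphur subunit, was at 2.08 ± 0.19 in controls, 2.10 ± 0.11 with paraoxon and 2.11 ± 0.04 with mipafox. SDHA, the flavoprotein, had 4 probes. The brightest (A_33_P3311056) was at 3.01 ± 0.10, 3.12 ± 0.05 and 3.12 ± 0.31. Another (A_23_P250035) had 0.21, -0.04 and 0.06 on the controls and 0.14, -0.14 and -0.93 on the paraoxon arrays, so that its change of -0.39 (SE 0.294, limma adjusted p = 0.642) rested on paraoxon C.

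SDHC and SDHD, the membrane anchors, were each measured at 3 places. The brightest SDHC probe (A_33_P3410724) had an SD between arrays of one treatment of 0.057, the smallest of all tested member probes, and stood at 3.92 ± 0.03, 3.89 ± 0.04 and 3.88 ± 0.08. The 2 dimmer SDHC probes mirrored each other: A_33_P3326682 was highest on mipafox A (0.62) and paraoxon C (0.54) and lowest on mipafox C (-0.77), while A_24_P233850 was lowest on paraoxon C (-0.00081) and mipafox A (0.35) and highest on paraoxon B (1.56). Their correlation over the 9 arrays was -0.84. The SDHD probe with the smallest p for mipafox (A_32_P59486) had a change of -0.25 (SE 0.205, limma adjusted p = 0.888), and the brightest (A_32_P155631) one of -0.090. A_23_P138967 (hg19, chr11:111965707-111965766, plus strand) and A_32_P59486 (chr11:111965758-111965817, plus strand) overlap by 9 bases, in capitals below. Their correlation over the 9 arrays was 0.86, and the lowest among the SDHD probes was 0.38. They are shown as the members' pair of probes that read neighbouring bases of a transcript. The last and the first 30 bases, 5′ to 3′, are:
SDHD A_23_P138967: tgcctctgctttgtcatgccaTTAAGCTCA
SDHD A_32_P59486: TTAAGCTCAcaataaggaagaaataacaga

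Complex III, the cytochrome bc1 complex, had 12 tested probes for 8 genes, with median log2 changes of -0.0065 and -0.022. With slide as a block 1 of them, UQCR10 (A_33_P3379199), passed an unadjusted p of 0.05 with paraoxon, at 0.92 (limma adjusted p = 0.613). UQCRC1 and UQCRC2, the core proteins, were at 3.23 ± 0.25 and 4.09 ± 0.08 in controls, 3.01 ± 0.23 and 4.18 ± 0.05 with paraoxon, and 3.37 ± 0.13 and 4.15 ± 0.30 with mipafox. The Rieske iron-sulphur protein UQCRFS1 was at 4.94 ± 0.04, 4.80 ± 0.14 and 4.93 ± 0.34, and the hinge protein UQCRH at 7.19 ± 0.18, 7.20 ± 0.29 and 7.17 ± 0.29. UQCRB, a small subunit of the membrane part, was at 4.35 ± 0.05, 4.47 ± 0.24 and 4.37 ± 0.43. The smallest p in both comparisons was that of UQCR11, a small accessory subunit. It had 6.17, 6.20 and 5.98 on the controls, 5.66, 5.50 and 6.09 on the paraoxon arrays and 6.33, 5.91 and 5.37 on the mipafox arrays. The changes were -0.37 (SE 0.250, limma adjusted p = 0.593) and -0.25 (SE 0.250, limma adjusted p = 0.926), and both treated groups overlapped the controls.

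Complex IV, cytochrome c oxidase, had 20 probes for 18 genes, 19 of them tested, with median log2 changes of -0.067 and -0.014. The 10 ubiquitous nuclear subunits had changes between -0.15 and 0.16 with paraoxon and between -0.25 and 0.15 with mipafox, and none passed an unadjusted p of 0.05. COX4I1, the common form of the largest nuclear subunit, was at 5.52 ± 0.07 in controls, 5.37 ± 0.09 with paraoxon and 5.39 ± 0.40 with mipafox. COX5A and COX5B, on the matrix side, were at 4.19 ± 0.06 and 4.84 ± 0.13 in controls, 4.35 ± 0.22 and 4.75 ± 0.30 with paraoxon, and 4.24 ± 0.33 and 4.59 ± 0.59 with mipafox. COX6C was at 4.80 ± 0.14, 4.73 ± 0.39 and 4.78 ± 0.59. The spread of COX5B and COX6C over the mipafox arrays was thus larger than any change of a ubiquitous subunit.

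Several complex IV subunits exist in forms made in particular tissues. The common forms COX6A1, COX6B1, COX7A2, COX7B and COX8A were at 6.76 ± 0.13, 4.59 ± 0.17, 6.10 ± 0.04, 4.96 ± 0.09 and 6.14 ± 0.23 in controls, and their changes lay between -0.14 and 0.15. COX4I2, a form of lung and other oxygen-sensing cells, was well above background on all 9 arrays at -6.51 ± 0.32 in controls, with changes of 0.15 and 0.31. This level is dim. A probe of the blood marker CD3E, at -6.01, -6.28 and -6.44 on the controls, also passed on all 9 arrays. One of the neuronal marker SYP, at -6.66, -6.91 and -6.83, passed on 6. Passing this limit therefore does not show that a dim form is made in these cells. The muscle forms COX6A2 and COX7A1 were also above background, at -2.34 ± 0.19 and -4.85 ± 0.08, and so was COX8C, a testis form, at -3.54 ± 0.22. For these 3 the changes lay between -0.093 and 0.15. COX7B2, a testis form, was not well above background on any array. Signals of different probes depend on the probe, so the levels of the forms are not compared with each other.

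COX7A2L, a relative of COX7A2 that takes part in joining complexes III and IV into supercomplexes, gave the only member probe with an unadjusted p under 0.05 in both comparisons. Probe A_24_P88800 (hg19, chr2:42580373-42580432, minus strand) had 2.40, 2.54 and 2.67 on the controls, 2.21, 2.34 and 1.94 on the paraoxon arrays, and 2.0, 2.05 and 2.01 on the mipafox arrays. All 6 treated arrays lay below all 3 controls. The log2 change was -0.37 (SE 0.147, 95% interval -0.70 to -0.04, limma adjusted p = 0.319) with paraoxon and -0.51 (SE 0.147, -0.84 to -0.18, limma adjusted p = 0.473) with mipafox, so neither passed the adjustment. Mipafox A, on the same slide as the controls, differed from their mean by -0.53. The second COX7A2L probe, A_23_P210348 (chr2:42577873-42577932), did not show this: it had 4.71, 4.96 and 5.03 on the controls, 4.80, 5.11 and 5.05 with paraoxon and 4.92, 4.86 and 4.93 with mipafox, with changes of 0.089 and 0.0056. The probes lie on the same transcript in the array's annotation. Their first 30 bases are shown, in lower case, to tell the 2 targets apart:
COX7A2L A_24_P88800: ccaactaaactgacctccgattccacagtg
COX7A2L A_23_P210348: acctcggggattttttccattttgcagtaa

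COX6B2, the testis form of the subunit that faces cytochrome c, was the other gene of complex IV with a probe past the unadjusted limit, and its probes moved in opposite directions. Probe A_23_P78571 (chr19:55862108-55862167, minus strand) had -4.84, -5.21 and -5.20 on the controls, -4.09, -4.28 and -4.35 with paraoxon, and -5.07, -4.22 and -4.68 on the mipafox arrays. The paraoxon arrays lay above all controls, with a log2 change of 0.84 (SE 0.218, 95% interval 0.35 to 1.33, limma adjusted p = 0.138), the largest of any member probe. The values also parted by slide: the 4 arrays of slide 1, mipafox A among them, all lay below the 5 of slide 2. On slide 1, mipafox A differed from the control mean by 0.015, and with slide as a block the changes were 0.23 for paraoxon and 0.015 for mipafox. For paraoxon, slide and treatment cannot be told apart.

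The second COX6B2 probe, A_33_P3378284, had 3.66, 2.42 and 2.60 on the controls and 2.07, 2.23 and 2.65 with paraoxon, a change of -0.58 (SE 0.314, limma adjusted p = 0.481) that rested on control A. With mipafox it had 2.77, 2.30 and 2.46. It shared a run of 20 bases with 3 probes of other targets on the same strand and with 3 on the opposite strand. In all 3 of the 108 member probes shared such a run on the same strand, the others being those of COX5A and UQCRB. Whether its signal comes from COX6B2 was not tested. The first 30 bases of its partner, the probe that was higher with paraoxon, are:
COX6B2 A_23_P78571: caccagccttcgagttccttgtttcccttg

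**Figure D2:**
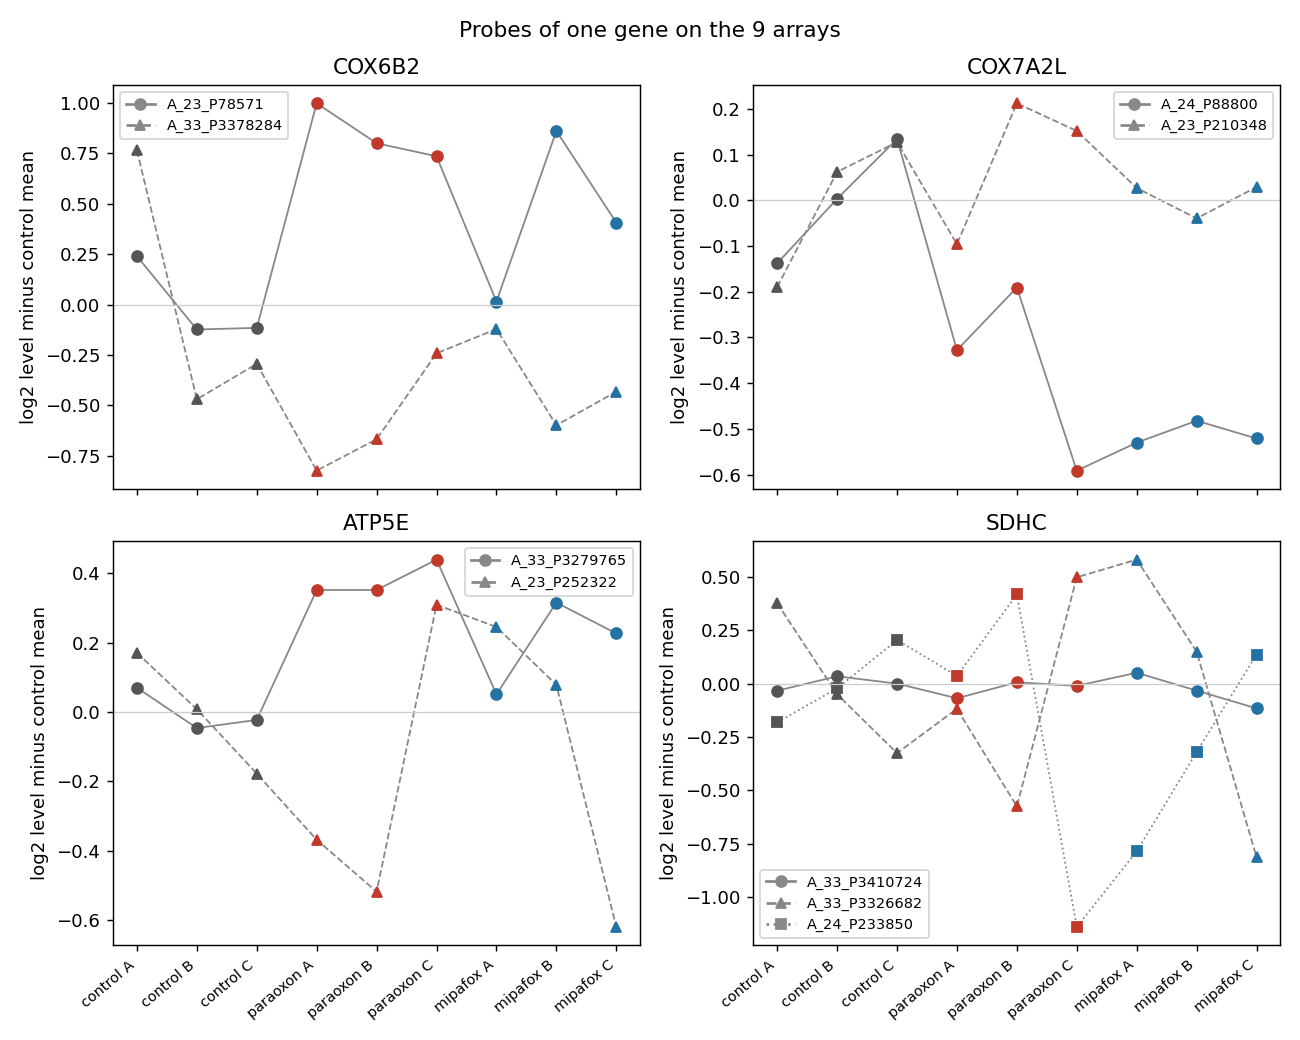
Log2 level minus the control mean on each of the 9 arrays (grey control, red paraoxon, blue mipafox) for the probes of COX6B2, COX7A2L, ATP5E and SDHC; lines join the values of 1 probe. Only 1 of the COX7A2L probes is lower on all 6 treated arrays, COX6B2 A_23_P78571 and ATP5E A_33_P3279765 are near 0 on mipafox A (slide 1) and above all controls on paraoxon arrays, and 2 SDHC probes mirror each other.

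Complex V, the ATP synthase, had 22 probes for 18 genes, 21 tested, with median log2 changes of -0.074 with paraoxon and 0.030 with mipafox. ATP5A1 and ATP5B, the alpha and beta subunits of the catalytic head, were at 5.55 ± 0.08 and 4.91 ± 0.12 in controls, 5.56 ± 0.07 and 4.79 ± 0.11 with paraoxon, and 5.70 ± 0.05 and 5.07 ± 0.32 with mipafox. ATP5C1, the gamma subunit of the turning shaft, was at 2.55 ± 0.28, 2.43 ± 0.46 and 2.47 ± 0.09, and ATP5D, the delta subunit, at 2.55 ± 0.19, 2.38 ± 0.31 and 2.59 ± 0.34. ATP5O, which ties the stalk to the head, was at 6.98 ± 0.12, 6.75 ± 0.25 and 6.85 ± 0.46. Of these only ATP5A1 had mipafox arrays that all lay above the controls, by 0.14 on the mean (SE 0.121, limma adjusted p = 0.898).

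The c ring of the ATP synthase is built from 1 protein that 3 genes encode. ATP5G1, ATP5G2 and ATP5G3 had changes of -0.13, -0.033 and -0.054 with paraoxon and -0.21, 0.11 and 0.030 with mipafox, none past the unadjusted limit. ATP5E, the epsilon subunit of the shaft, had 2 probes. A_23_P252322 was at 6.43 ± 0.17 in controls, 6.24 ± 0.44 with paraoxon and 6.33 ± 0.46 with mipafox. A_33_P3279765, designed to another transcript of the gene (chr20:57601028-57601087, minus strand), was dim, with -5.37, -5.48 and -5.46 on the controls, -5.08, -5.08 and -5.00 with paraoxon and -5.38, -5.12 and -5.21 with mipafox. Its change with paraoxon was 0.38 (SE 0.128, 95% interval 0.09 to 0.67, limma adjusted p = 0.241), with all paraoxon arrays above the controls. As for COX6B2, the 4 arrays of slide 1 all lay below the 5 of slide 2, and mipafox A differed from the control mean by 0.051. With slide as a block the change with paraoxon was 0.16. The first 30 bases of the probes are:
ATP5E A_33_P3279765: tccatggatcaaatagtgtatctcagtggt
ATP5E A_23_P252322: catttccaaggtgaagatgtgtgggcacat

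ATP5L encodes the g subunit of the membrane part, and ATP5L2 is a close copy of it on another chromosome. ATP5L was at 6.21 ± 0.06 in controls, 5.95 ± 0.26 with paraoxon and 6.03 ± 0.43 with mipafox. Of the ATP5L2 probes, A_33_P3791118 was not well above background on any array and A_33_P3791123 was at 3.67 ± 0.02, 3.81 ± 0.28 and 3.77 ± 0.29. The latter aligned with the ATP5L probe at 35 of 41 bases (85.4%), so that it may take up ATP5L transcripts and its value is uncertain. The most alike 30 bases are shown with the identical ones in capitals, 28 in all:
ATP5L A_23_P75622: GGCATCATTGGCTAtgATGTTTGAAGACCA
ATP5L2 A_33_P3791123: GGCATCATTGGCTAgaATGTTTGAAGACCA

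There were 3 members that carry such a name without being subunits of the complex. They were grouped by name with complex IV or V in the counts and medians by complex. COX4NB (now EMC8) belongs to a complex of the endoplasmic reticulum and had changes of -0.15 and -0.12, and ATP5SL (now DMAC2) had -0.0021 and 0.084. ATP5S (now DMAC2L) had -0.18 and -0.15 at A_33_P3279798, the probe with the largest spread between arrays of one treatment (SD 0.626), and 0.019 and -0.071 at A_24_P118231.

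The member levels differed more between arrays of one treatment than between treatments. Taken as the deviation of each probe from its mean over the 9 arrays, the median of the tested member probes was 0.061, 0.042 and -0.025 on the controls, -0.061, -0.143 and 0.156 on the paraoxon arrays, and 0.284, 0.041 and -0.324 on the mipafox arrays. The extremes were thus 2 arrays of the same treatment. Of the probes 52 had their highest value on mipafox A and 60 their lowest on mipafox C, shares of 49.5% and 57.1%, beside 17.8% and 26.2% of all tested probes. The median over all tested probes ran between -0.101 and 0.067. Complexes I, III, IV and V followed the same course, with ranges between 0.603 and 0.657, and complex II a flatter one of 0.208.

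**Figure D3:**
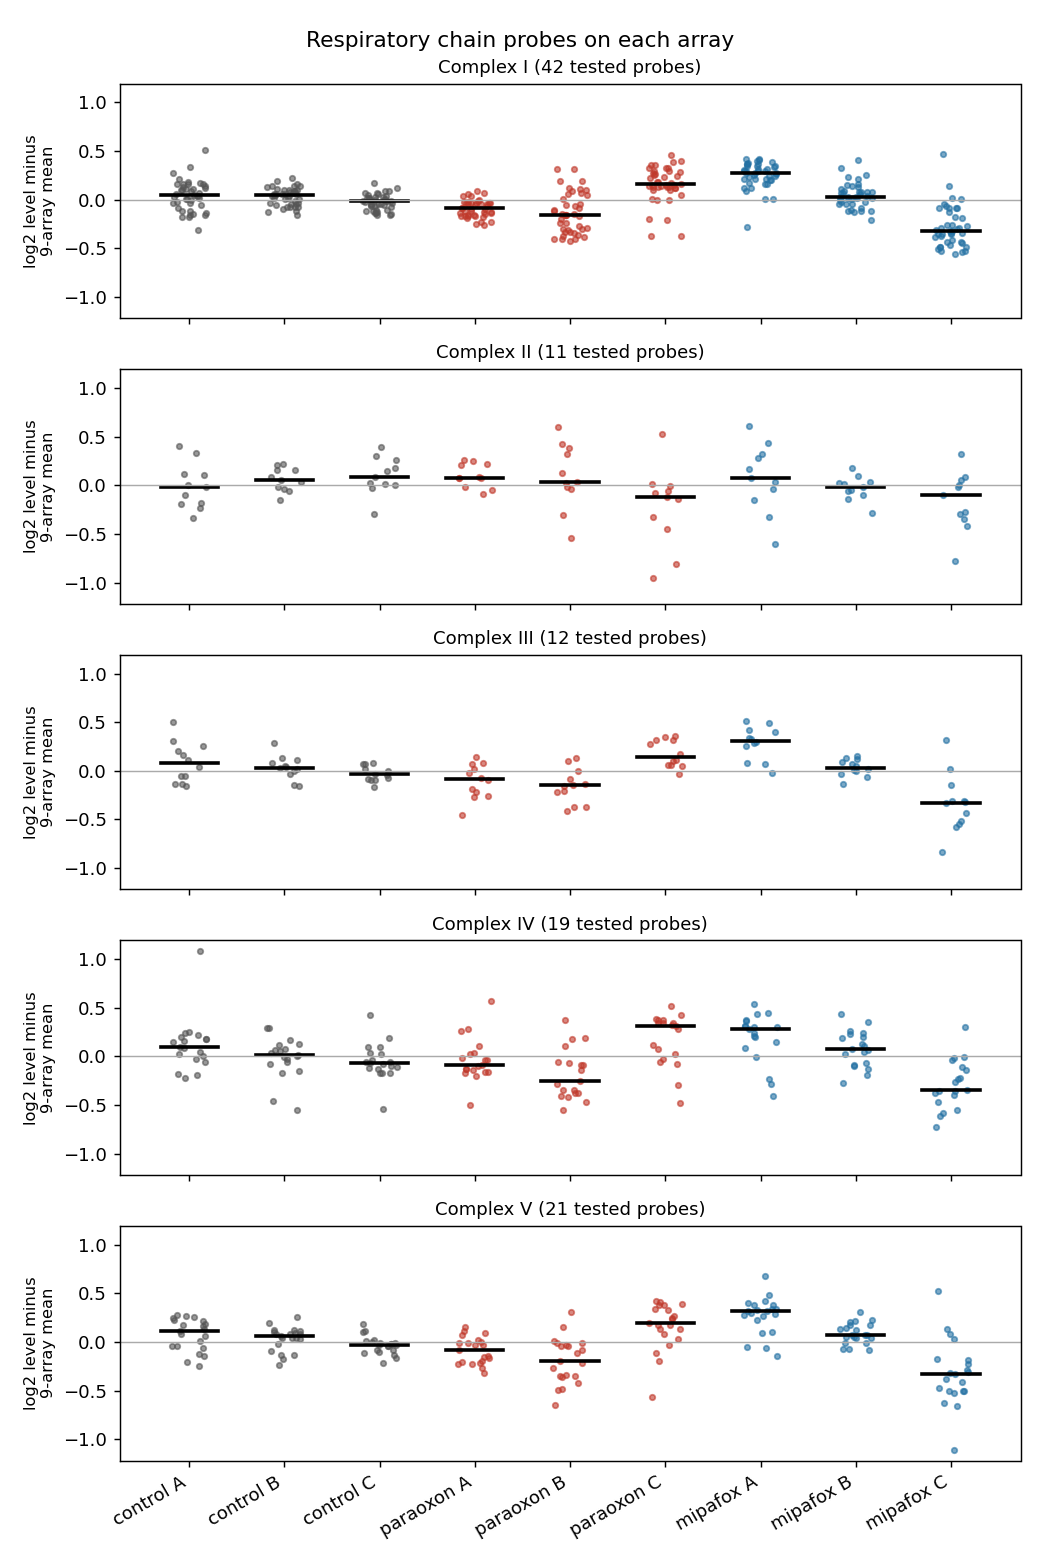
Deviation of each tested probe from its own mean over the 9 arrays (points; log2 scale) by array and complex, with the median as a black bar; grey is control, red paraoxon and blue mipafox. In complexes I, III, IV and V the medians are highest on mipafox A or paraoxon C (0.28 to 0.32 at the top) and lowest on mipafox C (-0.33 to -0.35), and complex II does not follow.

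The same course was seen, at a smaller size, in bright probes of other genes. Over the 2058 tested probes with a mean level over 3 that are no members, the median deviation was 0.200 on mipafox A, 0.115 on paraoxon C, -0.096 on paraoxon B and -0.207 on mipafox C. The size also depended on the scaling. With quantile normalization, which gives all arrays the same distribution, the member medians were 0.084 on mipafox A, 0.070 on paraoxon C, -0.069 on paraoxon B and -0.135 on mipafox C, and their range fell from 0.608 to 0.219. The 3 arrays with the lowest 75th percentile were mipafox A (802), paraoxon C (818) and control A (1000), which also had the highest medians, whereas mipafox C, with the lowest median, had 1261. The part of signal strength in this course was not tested.

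**Figure D4:**
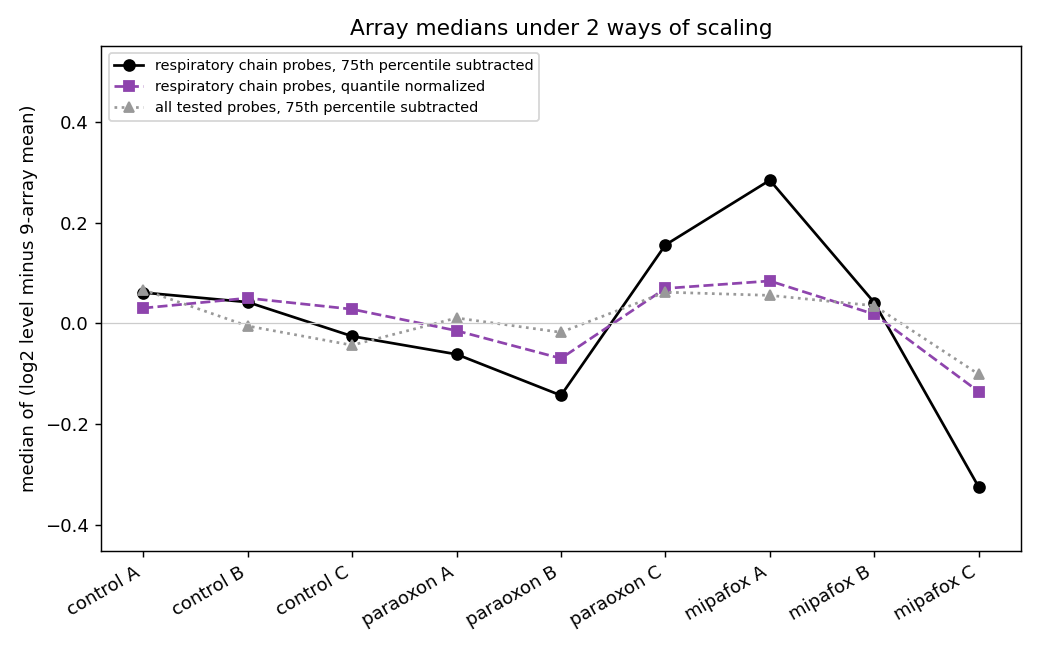
Median deviation from the 9-array mean on each array (log2 scale) for the tested respiratory chain probes with the 75th percentile subtracted (black), the same probes after quantile normalization (purple) and all 29134 tested probes (grey). The black line runs from -0.324 on mipafox C to 0.284 on mipafox A, the purple line keeps the order of these extremes within -0.135 and 0.084, and the grey line stays between -0.101 and 0.067.

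The median SD over the spots of a probe was below its SD between arrays in the 6 genes whose probe was printed 10 times. COX7C, NDUFS5, NDUFS6, UQCRC2, COX4NB and ATP5SL were printed 10 times on each array. Probes printed fewer times, such as that of NDUFV1 with 2 spots, were not examined in this way. For COX7C, a small complex IV subunit, the median SD over its spots was 0.030 on the log2 scale, and the SD between arrays of one treatment was 0.381. For NDUFS5, a small complex I subunit, these were 0.047 and 0.232, and for UQCRC2, where they lay closest, 0.073 and 0.183. On 1 array the spots of NDUFS6 had an SD of 0.179, near its 0.180 between arrays. Over the tested member probes the SD between arrays of one treatment had a median of 0.245, and over all tested probes 0.250.

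Not all subunits took part in the common course. The correlation over the 9 arrays of each probe with the median of the probes of the other genes was over 0.7 for 66 tested probes (62.9%) and below 0 for 20 (19.0%). Of all tested probes 17.2% had a correlation over 0.7 with the member median and 39.3% one below 0, and among the 2058 bright probes outside the chain 46.3% were over 0.7. These are descriptions over 9 arrays that share their scaling. With quantile normalization 38 member probes were over 0.7 and 28 below 0. The 10 probes of ubiquitous complex IV subunits were all over 0.7, and so were 10 of the 11 of the membrane part and stalk of complex V. Of the 35 probes grouped with accessory complex I subunits, that of NDUFA4 among them, 24 were over 0.7. COX6C had 0.99, UQCRQ, a small subunit of complex III, 0.98 and ATP5I, the e subunit of the ATP synthase, 0.94. COX6C, for example, had 4.86, 4.90 and 4.64 on the controls, 4.64, 4.39 and 5.16 with paraoxon and 5.31, 4.88 and 4.15 with mipafox.

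Other probes did not follow it. ATP5B had a correlation of -0.67, with its highest level, 5.45, on mipafox C and 4.86 on mipafox A. ATP5C1 (-0.51), SDHB (-0.47) and ATP5A1 (-0.31) were also below 0, and 6 of the 11 probes of complex II were. Other catalytic, iron-sulphur or FMN-binding subunits were above 0, with UQCRFS1 at 0.95, NDUFV2 at 0.93, NDUFS1 at 0.87, NDUFV1 at 0.73, NDUFS7 at 0.58 and NDUFS8 at 0.52. NDUFA9, an accessory subunit beside the quinone site, had -0.77. Among the 7 core subunits of complex I, 3 were over 0.7. The shares of groups with so few probes were not tested.

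**Figure D5:**
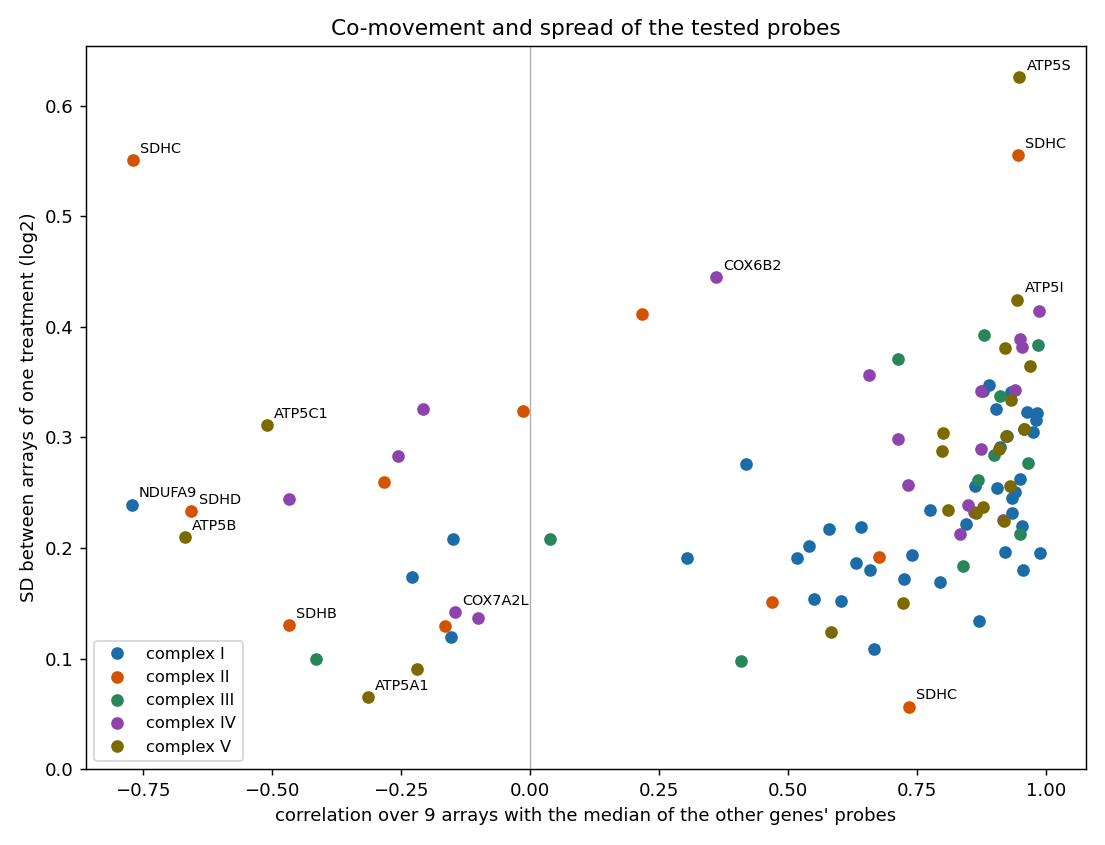
Correlation of each tested probe with the median of the other genes' probes over the 9 arrays (horizontal) against its SD between arrays of one treatment (vertical, log2 scale), coloured by complex. Most probes of complexes I, III, IV and V lie at the right, and 66 probes of all 5 complexes are over 0.7, while SDHC has probes at both ends (-0.77 and 0.945) and ATP5A1 combines a low SD with a correlation of -0.31.

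Genes with several probes showed how far a value belongs to the gene. For 16 genes with 2 to 4 tested probes (37 in all), the probes differed in the sign of the change in 12 genes with paraoxon and in 10 with mipafox. The correlation between probes over the 9 arrays was over 0.7 for every pair in 5 of them, such as ATP5J2 (0.98), NDUFB8 (0.96) and UQCRH (0.91), and below 0 for a pair in 4, which were SDHC (-0.84), COX6B2 (-0.45), UQCRB (-0.30) and ATP5E (-0.19). For COX7A2L it was 0.068.

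The promoters of the members were searched for the letters of 3 sites known from genes of mitochondrial function. NRF1 is a regulator of respiratory chain genes that binds GCGCATGC, the ETS factor GABPA (NRF2) binds CCGGAAGT, and YY1 binds AAGATGGC. All 86 genes matched a RefSeq gene, 21 of them under another current symbol, and 70 had a promoter window of 300 bases, from 250 before to 50 after the start (RefSeq, GRCh38.p14). On either strand, GCGCATGC was in 13 of the 70 (18.6%, beside 3.05% of all 35116 promoters), CCGGAAGT in 9 (12.9%, beside 4.14%) and AAGATGGC in 11 (15.7%, beside 2.89%). At least 1 of them was in 27 (38.6%, beside 9.36%). GCGCATGC overlaps itself on the opposite strand, so a longer match counts as 1. AAGATGGC lay after the start in 9 of 11 promoters.

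The matches were also counted by the course of the genes over the arrays. Of the 48 promoters of genes whose brightest probe had a correlation over 0.7, 7 held GCGCATGC, 8 CCGGAAGT and 4 AAGATGGC. Of the 20 at 0.7 or less, 6, 1 and 7 did. These are counts of letters with no test. The 150 bases before the start, 5′ to 3′ on the gene's strand, are shown for 3 genes that followed the common course, ATP5I (ATP5ME, GRCh38.p14 chr4:674277-674426, minus strand), UQCRQ (chr5:132866492-132866641, plus strand) and UQCR11 (chr19:1605463-1605612, minus strand), and for SDHD (chr11:112086723-112086872, plus strand), which did not, with matches in capitals:
ATP5I: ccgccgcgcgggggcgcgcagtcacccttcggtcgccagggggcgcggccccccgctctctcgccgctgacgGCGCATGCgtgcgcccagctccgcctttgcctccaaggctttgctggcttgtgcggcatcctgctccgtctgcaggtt
UQCRQ: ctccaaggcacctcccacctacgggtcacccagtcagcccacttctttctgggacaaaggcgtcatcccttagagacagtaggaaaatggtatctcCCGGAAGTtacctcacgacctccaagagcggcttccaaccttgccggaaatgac
UQCR11: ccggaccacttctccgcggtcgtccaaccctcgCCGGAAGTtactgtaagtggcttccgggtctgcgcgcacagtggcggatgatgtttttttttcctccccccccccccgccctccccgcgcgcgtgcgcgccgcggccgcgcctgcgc
SDHD: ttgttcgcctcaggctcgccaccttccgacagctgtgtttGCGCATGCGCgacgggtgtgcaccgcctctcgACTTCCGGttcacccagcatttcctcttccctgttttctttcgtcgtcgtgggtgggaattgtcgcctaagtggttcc

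Other genes of the pathway were read from lists of assembly factors, electron carriers, mitochondrial DNA upkeep and nuclear regulators, 73 genes with 94 tested probes. With paraoxon 3 of these were higher and 4 lower at an unadjusted p under 0.05, 7.31% and 6.02% being the shares over all tested probes. With mipafox 0 were, beside 2.96% and 4%, and none had a limma adjusted p under 0.05 in either comparison. The higher ones were probes of COX18 (0.48) and COX11 (0.34), assembly factors of complex IV, and MTERF (0.37), a mitochondrial transcription factor. The lower ones were probes of FOXRED1 (-0.83), an assembly factor of complex I, UQCC (-0.44), one of complex III, TFAM (-0.67), which packages and transcribes mitochondrial DNA, and ESRRA (-0.59), a nuclear receptor that regulates oxidative genes. The limma adjusted p of these lay between 0.233 and 0.368. Other probes of the same genes differed in part: the second TFAM probe had 0.54 (limma adjusted p = 0.599), the second ESRRA probe -0.074, the other UQCC probes -0.44 and 0.044, and the other COX11 probes 0.10 and 0.059. Much of the change of FOXRED1, UQCC (A_23_P210948) and ESRRA (A_33_P3243544) came from paraoxon C, at -3.32, -1.23 and -1.77. Paraoxon A and B, also below the controls, had -1.97 and -1.95, -0.76 and -0.55, and -0.84 and -0.73. The COX18 probe was dim, at -5.20, -4.93 and -4.82 on the controls. No probe on the array carried a name of the mitochondrially encoded subunits in the spelling with MT- in front (such as MT-CYB). Other spellings were not searched, and these subunits were not analysed here.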

How the data were processed

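RNA of 9 NT2 cultures (3 control, 3 paraoxon, 3 mipafox) was measured on 1-colour arrays of 58717 spots and 42405 probes. The authors deposited the scanner output of Agilent Feature Extraction 10.5.1.1, whose processed and mean signals are linear intensity values, and their own normalized log2 values, which served as an alternative. The processed signal was used here, on the log2 scale and relative to the 75th percentile of its array. Control spots and flagged outlier spots were dropped before replicate spots were averaged. Tested were the 29134 probes that stood well above background on all arrays of 1 group or more and had 2 or more values per group. The test was limma 3.58.1 in R 4.3.3, with 1 mean per group and Benjamini-Hochberg adjustment. No correction for slide was in that fit. Scripts ran in Python 3.11.15 with matplotlib 3.10.9. Precision is limited by how many arrays there are.

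The members and gene lists were chosen with earlier results of these data known. Named were called probes, core subunits, paralogous forms, and the probe with the smallest p per complex and comparison. Also named were genes whose probes differed in sign with a p under 0.05. Other members, the genes in the account of co-movement among them, were named after their values were seen. The same holds for the genes named from the pathway lists, which were planned as counts only. Where a gene had several probes, the brightest stood for it otherwise. The brightness limit of 3, the correlations and the search for shared runs of bases were chosen after the data were seen. Alternatives were the scaling, the background correction with an offset of 50, the authors' values, the filter, a block for slide or for letter, which arrays entered the fit, array weights, the variance model, 1 probe per gene, outlier spots and the threshold. Probe coordinates are those of the deposited files (hg19), and promoters are those of RefSeq (GRCh38.p14). The values of 1 member and the sequence of 1 probe are not reported here.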

Additional observations from a re-analysis of the deposited data

How the results depend on the processing

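The number of called member probes was 0 in each comparison under every alternative run except array weights, where COX6B2 A_23_P78571 was called with paraoxon (1 probe, log2 change 1.04, limma adjusted p = 0.00337; its adjusted p ran from 0.00337 to 0.816 over the alternatives). In that fit 671 and 800 of all tested probes were called. Probes that were no members were also called in other alternatives. With only the 2 groups compared they were 278 for paraoxon and 0 for mipafox, and without mipafox A 275 and 78. Without mipafox B they were 77 and 0, without mipafox C 1 and 0, and with slide as a block 1 and 6. With array weights 11 member probes in each comparison had an unadjusted p under 0.05 (beside 29.9% and 37.2% of all). The numbers past that limit, 3 and 1, were 6 and 6 with the authors' processed values (5.71% each, beside 16.5% and 9.19% of all), 5 with paraoxon and 1 with mipafox with slide as a block (4.76% and 0.952%, beside 8.02% and 5.48%), and 0 and 0 with the brightest probe per gene. They ran from 1 to 3 for paraoxon and from 1 to 5 for mipafox when an array was left out, with the 1 without control C and the 5 without mipafox A (COX7A2L and COX6B2 probes among them, beside 12.9% of all). The median log2 change moved from -0.054 to 0.34 for paraoxon and from -0.019 to 0.26 for mipafox with slide as a block. When an array was left out it ran from -0.147 to 0.026 and from -0.149 to 0.137. With the authors' values the medians were 0.0010 and 0.0028. The cause of these shifts was not tested. With the replicate letter as a block 2 probes for paraoxon and 1 for mipafox had an unadjusted p under 0.05, and the medians were as without the block. The letters did not pair the arrays: deviations of arrays with the same letter correlated between -0.60 and 0.57. COX7A2L A_24_P88800 stayed negative in all alternatives, between -0.46 and -0.26 with paraoxon and between -0.58 and -0.44 with mipafox. Its limma adjusted p ran from 0.0276 to 0.661 and from 0.00958 to 1.0. This p was under 0.05 only with array weights, where the change stayed within 1, so the probe was not called in any fit. Over 50 named probes, 2188 values under alternatives held 1 new call, no sign change past an unadjusted p of 0.05 in either fit, and 216 other sign changes. A limit on adjusted p alone gave 0 calls in both comparisons, and with array weights 4 and 6. The tested member probes were selected as well above background, so that they are above it tells nothing about the results. Dim ones could still depend on the processing: for COX6B2 A_23_P78571 the change with paraoxon was 0.84 in the fit as written and 0.40 with the authors' processed values. The 3 member probes below background have no level.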
